A study of Mus musculus with 4 samples.

Results

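The genes described here are 10 genes of the Wnt pathway in mouse embryonic fibroblasts (MEFs): the R-spondins *Rspo1*, *Rspo2* and *Rspo3*, the Lgr receptors *Lgr4*, *Lgr5* and *Lgr6*, the ubiquitin ligase *Znrf3*, and the feedback targets *Axin2*, *Lef1* and *Nkd2*. They were taken by symbol from a table of counts for 24391 gene symbols, and all 10 were found. The RNA-seq data comprise 4 libraries, with replicates 1 and 2 of WT and of *Phf2* KO. All 4 came from primary MEFs of E13.5 embryos that carry Phf2 flox/flox and ERCre/+, a CreERT2 recombinase expressed from *Rosa26*, and were held in quiescence. The *Phf2* KO libraries are in addition labelled with tamoxifen, given in the protocol as 0.5 µM 4-hydroxytamoxifen (4-OHT) for 7 days. The protocol is worded alike for all libraries and does not name the vehicle or medium of the WT cells. Since 4-OHT, active Cre and recombined *Phf2* come together in the same libraries, their contributions cannot be told apart.

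The 10 genes were chosen because of their values in this comparison of *Phf2* KO with WT, so these values are given as a description and no test is drawn from them. The study calls the libraries biological replicates, and no label says whether they came from separate cultures or embryos. By the levels of *Xist* and *Ddx3y* given below, the replicate numbers differ in sex, so libraries of different number came from different embryos. The spread between them may still be partly technical.

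Wnt proteins signal by binding Frizzled receptors together with the co-receptors Lrp5 and Lrp6, which stabilises β-catenin and lets it activate genes with Tcf and Lef factors. The transmembrane ligases Znrf3 and Rnf43 remove Frizzled proteins from the cell surface. R-spondins, which are secreted, bind Lgr receptors and draw these ligases away, so that more Frizzled remains at the surface. *Axin2*, *Lef1*, *Nkd2*, *Znrf3* and, in several tissues, *Lgr5* are themselves induced by β-catenin, and the products of *Axin2*, *Nkd2* and *Znrf3* dampen the signal.

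The promoter windows of *Lgr6*, *Lgr4* and *Axin2* are shown because the study asks about Phf2 at transcription start sites. These genes were lower in both *Phf2* KO libraries than in both WT libraries, by very different amounts. *Lgr5* was lower in the same way, but no window was available for it. The windows are those of RefSeq on GRCm38.p6, a later build than the mm9 build of the counts, and run from 250 bases before to 50 bases after the start, 5′ to 3′ on the strand of the gene. *Lgr6* lies at chr1:135105227-135105526 on the reverse strand, *Lgr4* at chr2:109917397-109917696 on the forward strand and *Axin2* at chr11:108920099-108920398 on the forward strand. Capitals mark CG dinucleotides (CpG).
Lgr6: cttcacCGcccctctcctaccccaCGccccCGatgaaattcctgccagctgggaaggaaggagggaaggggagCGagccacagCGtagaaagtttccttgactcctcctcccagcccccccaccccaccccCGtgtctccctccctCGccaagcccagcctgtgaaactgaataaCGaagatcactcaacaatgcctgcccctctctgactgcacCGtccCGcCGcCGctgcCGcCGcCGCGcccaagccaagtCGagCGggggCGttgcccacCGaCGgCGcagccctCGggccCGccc
Lgr4: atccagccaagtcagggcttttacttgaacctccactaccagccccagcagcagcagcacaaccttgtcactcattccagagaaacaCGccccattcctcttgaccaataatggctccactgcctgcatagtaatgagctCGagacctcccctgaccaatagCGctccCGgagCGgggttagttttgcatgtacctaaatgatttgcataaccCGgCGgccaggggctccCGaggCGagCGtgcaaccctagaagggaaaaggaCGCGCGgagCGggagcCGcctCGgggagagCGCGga
Axin2: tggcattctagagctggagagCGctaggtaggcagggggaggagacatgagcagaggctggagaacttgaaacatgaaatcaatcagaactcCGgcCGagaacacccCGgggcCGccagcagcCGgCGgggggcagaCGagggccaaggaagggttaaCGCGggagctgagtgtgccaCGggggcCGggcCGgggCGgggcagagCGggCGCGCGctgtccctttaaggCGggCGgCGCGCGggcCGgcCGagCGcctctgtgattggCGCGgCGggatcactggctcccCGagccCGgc

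The table held windows for 6 of the 10 genes, 9 windows in all, with 4 of these for *Lef1*. The windows of *Lgr4*, *Lgr6*, *Rspo1*, *Axin2* and *Nkd2* held 18, 24, 29, 31 and 26 CpG, and the median over 32841 windows of the same length was 7. At least as many CpG as in *Lgr6* were found in 20% of all windows, and as many as in *Lgr4* in 29.7%. The windows of *Lgr6* and *Lgr4* both lay above the median, and a link of CpG content to the differences was not tested. The Tcf/Lef motif was searched as CTTTGAA or CTTTGAT on both strands. It was absent from all 9 windows and present in 8.65% of all windows. At that share, so few windows cannot show whether the motif is rarer in these genes.

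Libraries held between 21094743 and 26094268 counts, on 16903 to 17325 genes. *Phf2* itself was counted at 134.6 and 141.8 normalized CPM (counts scaled to the TMM-adjusted library size) in WT and at 70.2 and 89.8 in *Phf2* KO, so that the mean in *Phf2* KO was 57.9% of WT. The counts cover the whole gene and not the floxed part alone. All 12 fibroblast markers passed the filter on low counts, with summed levels of 71902 and 69928 CPM in *Phf2* KO against 76673 and 82469 in WT. Of these 12, 5 were lower without overlap, and over all genes tested 18% were lower and 15.5% higher without overlap. Skeletal muscle markers summed to at most 2.08 CPM and epithelial markers to between 0.531 and 1.498, with *Myod1*, *Myog*, *Krt5* and *Krt14* at 3 counts or fewer in each library. Smooth muscle markers summed to 1053 and 1713 CPM in WT against 1123 and 1497 in *Phf2* KO. Endothelial markers were low, with 22.1 and 12.1 CPM in WT against 16.3 and 9.53 in *Phf2* KO, and were lower in *Phf2* KO within each replicate number and higher in replicate 1, with 3 of 8 at 3 counts or fewer in each library. Neural markers summed to 95.8 and 94.2 CPM in WT against 111.8 and 104.3 in *Phf2* KO, without overlap, with 2 of the 6 that passed the filter higher and 1 lower without overlap. Macrophage markers summed to 4163 CPM in WT replicate 1 and 909.3 in WT replicate 2, and to 4724 and 1429 in *Phf2* KO, and all 16 were higher in replicate 1 in both groups. *Xist*, transcribed from the inactive X chromosome, had 417 and 402 CPM in the replicates 1 and 0.116 and 0.499 in the replicates 2. *Ddx3y*, on the Y chromosome, had 0.249 and 0.483 CPM in the replicates 1 and 49.0 and 53.9 in the replicates 2. In both groups the replicates 1 thus read as female and the replicates 2 as male, so sex and replicate number cannot be told apart. In RNA from whole cultures, fewer cells of a type and less RNA per cell cannot be told apart.

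In WT, *Rspo3* and *Lgr5* were the most abundant of the 10 genes and *Axin2* and *Lef1* the least. On the RPKM scale, in which CPM is divided by transcript length in kilobases and which allows levels of different genes to be compared, the WT means were 37.5 for *Rspo3*, 17.5 for *Lgr5*, 8.29 for *Rspo2*, 7.00 for *Lgr4*, 3.23 for *Nkd2*, 1.89 for *Lgr6*, 1.63 for *Rspo1*, 1.46 for *Znrf3*, 0.859 for *Axin2* and 0.0915 for *Lef1* (n = 2). Neighbours in this order had separate ranges, except that *Rspo2* overlapped with *Lgr4*, and *Rspo1* with *Lgr6* and with *Znrf3*. In *Phf2* KO, *Lgr6* stood at rank 9 instead of rank 6, below *Axin2*, and its range overlapped with that of *Lef1*. With these lengths, the other genes kept their order among themselves, although the ranges of *Lgr5* and *Rspo2* now overlapped. The place of *Lgr5* depended on the length used, in both groups. The summed length of all its annotated exons is 10264 bases and that of its main coding transcript 4714. By summed exon length, its WT mean was 8.05 RPKM, beside 8.29 for *Rspo2* and above 6.02 for *Lgr4*, and its *Phf2* KO mean was 3.45, below 4.65 for *Lgr4* and beside 3.49 for *Nkd2*. *Lgr5* then stood at rank 3 in WT and at rank 5 in *Phf2* KO, while *Lgr6* went from rank 6 to rank 9 by either length.

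**Figure D1:**
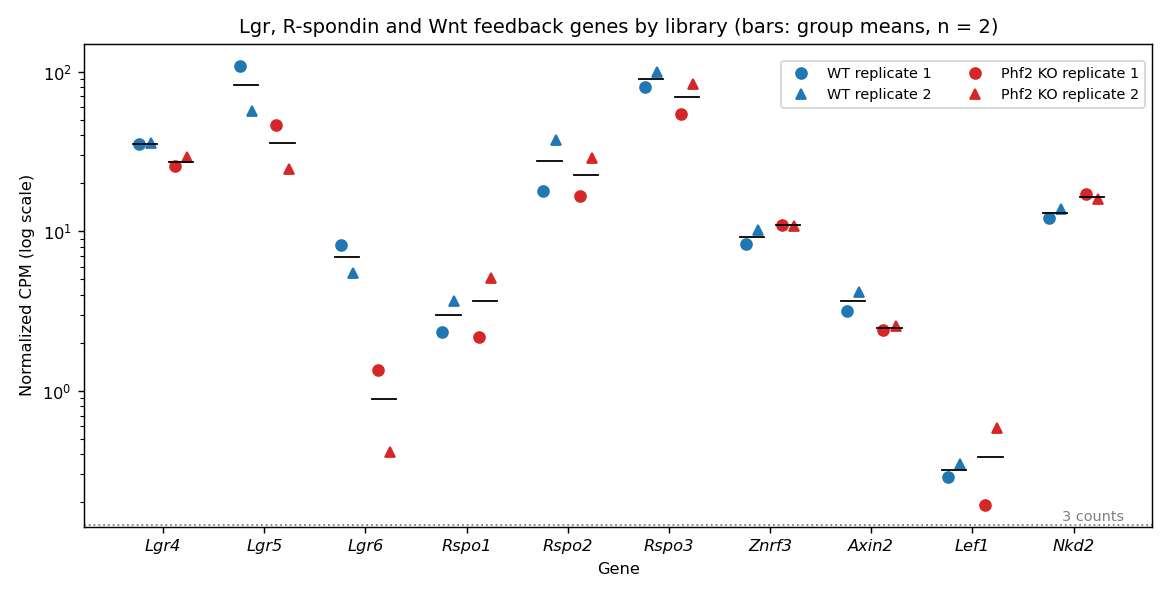
Normalized CPM on a log axis of each of the 10 genes in each library, with WT in blue, *Phf2* KO in red, circles for replicate 1, triangles for replicate 2 and bars for group means. *Lgr6* shows the widest gap between the groups, from 5.51 and 8.21 CPM in WT to 0.416 and 1.35 in *Phf2* KO, and the dotted line marks the highest level that 3 counts give in any library.

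Of the 10 genes, 9 passed the filter on low counts, and *Lef1* did not. In *Phf2* KO, *Lgr4*, *Lgr5*, *Lgr6* and *Axin2* were lower in both libraries than in both WT libraries, *Znrf3* and *Nkd2* were higher in both, and *Rspo1*, *Rspo2* and *Rspo3* overlapped. Over all 13668 genes tested, 18% were lower and 15.5% higher without overlap. No gene of the 9 had an adjusted p-value under 0.1 in edgeR's quasi-likelihood test, which called 0.00732% of all genes. At an unadjusted p-value under 0.05 the same test gave 3 of the 9 and 4.21% of all genes. DESeq2 called 1 of them, *Lgr6*, and 0.4% of all genes, and limma-voom called 0 and 0%. The median log2 fold change of the 9 genes was −0.37, with 0.01 over all genes tested. Because the genes were chosen on this contrast, these counts describe the choice.

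The libraries of the genotypes overlapped for each R-spondin gene, and *Rspo3* was the most abundant. *Rspo3*, on chromosome 10 of mm9 (29172915 to 29255673, reverse strand, 5 exons), is an R-spondin known from vascular and intestinal stroma. It was counted 1920 and 2588 times in WT against 1127 and 2018 times in *Phf2* KO, or 79.7 and 99.7 against 54.4 and 83.9 CPM. Its log2 fold change was −0.37 (SE 0.243), with *Phf2* KO replicate 2 lying inside the WT range. Within replicate numbers, the log2 ratio of *Phf2* KO over WT was −0.55 (95% counting interval −0.66 to −0.44) for replicate 1 and −0.25 (−0.33 to −0.16) for replicate 2, so *Rspo3* was lower within both numbers.

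*Rspo2*, on chromosome 15 (42852357 to 43002364, reverse strand, 6 exons), encodes an R-spondin needed for limb and lung development. It had 17.8 and 37.4 CPM in WT against 16.6 and 28.7 in *Phf2* KO. The replicates differed more than the genotypes did: replicate 1 was below replicate 2 by a log2 ratio of −1.07 in WT and −0.80 in *Phf2* KO, and the log2 fold change between genotypes was −0.28 (SE 0.448). *Rspo1*, on chromosome 4 (124663674 to 124686343, forward strand, 6 exons), encodes the R-spondin known for its role in ovary development. It had 2.32 and 3.66 CPM in WT against 2.17 and 5.12 in *Phf2* KO, with a log2 fold change of 0.29 (SE 0.494) and opposite signs within the replicate numbers. *Rspo4* was counted 2, 0, 0 and 3 times, which is at or under the limit of 3 counts, or up to 0.145 CPM, that a count of 0 allows.

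Per transcript length, *Rspo3* made up 83.4% and 75.9% of the R-spondin signal in WT against 78.7% and 75.3% in *Phf2* KO. *Rspo2* followed with 13.4% and 20.5% in WT against 17.2% and 18.6% in *Phf2* KO. The make-up of the R-spondins thus overlapped between genotypes, as did their summed level, which was 39.9 and 54.9 RPKM in WT against 28.9 and 46.5 in *Phf2* KO.

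Among the receptors, all 3 Lgr genes were lower in *Phf2* KO, *Lgr6* by far the most. *Lgr6* lies on chromosome 1 (136882925 to 137001853, reverse strand, 18 exons) and marks stem cells of hair follicles and other epithelia. It was counted 198 and 143 times in WT against 28 and 10 times in *Phf2* KO, which gave 8.21 and 5.51 against 1.35 and 0.416 CPM. Both *Phf2* KO libraries were below both WT libraries, and the mean of 0.884 ± 0.661 CPM was 12.9% of the WT mean of 6.86 ± 1.91 (SD, n = 2), or 7.77-fold lower. The log2 fold change was −2.97 (SE 0.585), and 8 of the genes tested had one as low or lower, *Lgr6* included. Since *Lgr6* was chosen on this contrast, this rank describes the choice. The genes tested include some that passed the filter on low counts only through their WT libraries. Within replicate numbers the log2 ratio was −2.60 (95% counting interval −3.23 to −2.03) for replicate 1 and −3.73 (−4.82 to −2.81) for replicate 2. These intervals overlap and cover counting error only.

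*Lgr5*, on chromosome 10 (114887367 to 115024836, reverse strand, 18 exons), is the receptor known as a marker of intestinal stem cells. It was counted 2614 and 1472 times in WT against 962 and 588 times in *Phf2* KO, or 108.5 and 56.7 against 46.4 and 24.5 CPM. The mean in *Phf2* KO, 35.4 ± 15.5 CPM, was 42.9% of the WT mean of 82.6 ± 36.6 (SD, n = 2), 2.33-fold lower, without overlap between the groups. The log2 ratio within replicate numbers was −1.22 (95% counting interval −1.33 to −1.12) for replicate 1 and −1.21 (−1.35 to −1.08) for replicate 2. Across genotypes the log2 fold change was −1.22 with an SE of 0.444, since replicate 1 exceeded replicate 2 by 0.93 log2 units in WT and by 0.92 in *Phf2* KO. The macrophage and endothelial markers and *Xist* differ between the replicate numbers in the same sense, the endothelial sum is also lower in *Phf2* KO within each number, and their part in the levels of *Lgr5* was not tested. Of all genes tested, 0.483% were lower by more than 1 log2 unit in both replicate numbers, with *Lgr5* and *Lgr6* among them, and 0.117% were higher by as much, with 0 of the 10.

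*Lgr4*, on chromosome 2 (109757804 to 109854414, forward strand, 18 exons), is the most broadly expressed receptor of the family. It was counted 850 and 922 times in WT against 532 and 697 times in *Phf2* KO, or 35.3 and 35.5 against 25.7 and 29.0 CPM. The WT replicates were nearly equal, the *Phf2* KO libraries were both lower, and the *Phf2* KO mean was 77.2% of WT. The log2 fold change was −0.37 (SE 0.107), with −0.46 for replicate 1 and −0.29 for replicate 2.

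Per length, the summed Lgr signal was 32.2 and 20.6 RPKM in WT against 15.3 and 11.03 in *Phf2* KO. Since *Lgr4* differed least, its share of this sum went from 21.6% and 34.1% in WT to 33.2% and 51.9% in *Phf2* KO, with overlap between the groups. *Lgr5* held 71.4% and 58.5% in WT against 64.4% and 47.0% in *Phf2* KO, also with overlap. The share of *Lgr6* was 7.02% and 7.38% in WT against 2.43% and 1.04% in *Phf2* KO, without overlap. Which Lgr receptor was the most abundant depended on the length: *Lgr4* exceeded *Lgr5* in *Phf2* KO replicate 2 by main transcript length, and by summed exon length in WT replicate 2 as well (6.04 against 5.53 RPKM). By summed exon length, the share of *Lgr6* was 11.5% and 11.1% in WT against 3.84% and 1.47% in *Phf2* KO, again without overlap.

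**Figure D2:**
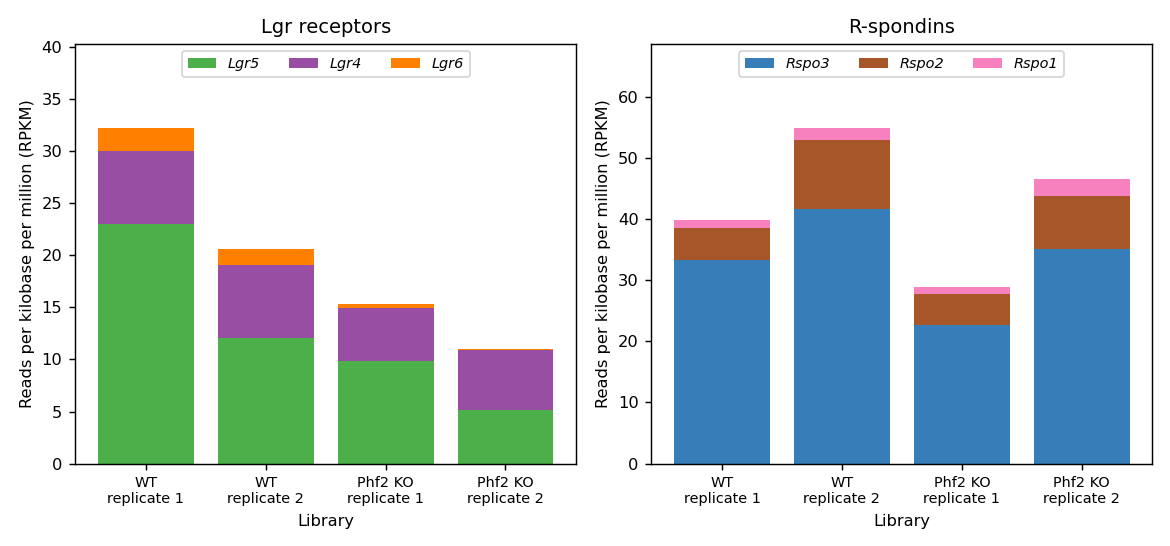
Stacked RPKM, by main transcript length, of the Lgr receptors (left) and of the R-spondins (right) in each library, with 1 bar per library and no error bars. The Lgr sum was 32.2 and 20.6 RPKM in WT against 15.3 and 11.03 in *Phf2* KO, while the R-spondin sums of the genotypes overlap and are mostly *Rspo3*.

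*Znrf3*, on chromosome 11 (5176327 to 5344850, reverse strand, 9 exons), encodes the ligase that R-spondins and Lgr receptors draw from the membrane. It had 8.30 and 10.2 CPM in WT against 10.9 and 10.8 in *Phf2* KO. Both *Phf2* KO libraries were higher, by a log2 fold change of 0.23 (SE 0.166), with 0.39 for replicate 1 and 0.09 for replicate 2. Its paralog *Rnf43* was counted 6 and 14 times in WT against 6 and 1 times in *Phf2* KO and did not pass the filter.

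The feedback targets differed in direction. *Axin2*, on chromosome 11 (108781663 to 108812097, forward strand, 11 exons), encodes a scaffold of the complex that degrades β-catenin and is used as a readout of the pathway. It was counted 76 and 108 times in WT against 50 and 61 times in *Phf2* KO, or 3.15 and 4.16 against 2.41 and 2.54 CPM. Both *Phf2* KO libraries were lower and their mean was 67.7% of WT, with a log2 fold change of −0.56 (SE 0.244). The counting interval of the log2 ratio was −0.93 to 0.15 for replicate 1, which includes 0, and −1.19 to −0.25 for replicate 2. *Axin1*, the paralog that is not a feedback target, had 74.9 and 74.7 CPM in WT against 74.1 and 68.4 in *Phf2* KO, with a log2 fold change of −0.07 (SE 0.0829).

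*Nkd2*, on chromosome 13 (73955982 to 73985079, reverse strand, 10 exons), encodes an inhibitor that binds Dishevelled. It had 12.1 and 13.8 CPM in WT against 17.0 and 16.0 in *Phf2* KO. Both *Phf2* KO libraries were higher, with a mean at 127.2% of WT and a log2 fold change of 0.35 (SE 0.135). Its paralog *Nkd1*, another target of the pathway, was more abundant, with 75.4 and 102.6 CPM in WT against 72.5 and 81.0 in *Phf2* KO. There the libraries overlapped and the log2 fold change was −0.21 (SE 0.172), so the paralogs had estimates of opposite sign.

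*Lef1*, on chromosome 3 (130813389 to 130927274, forward strand, 12 exons), encodes a transcription factor that binds DNA together with β-catenin. It was counted 7 and 9 times in WT against 4 and 14 times in *Phf2* KO. With so few counts *Lef1* was not tested, and its ratios had wide intervals and opposite signs. The log2 ratio was −0.59 (95% counting interval −2.81 to 1.39) for replicate 1 and 0.75 (−0.56 to 2.14) for replicate 2. Its relatives *Tcf7l1* and *Tcf7l2*, which bind the same motif, carried most of the family's counts. *Tcf7l1* had 97.9 and 100.9 CPM in WT against 93.4 and 96.7 in *Phf2* KO, and *Tcf7l2* had 44.0 and 49.2 against 47.7 and 51.7. *Tcf7* was counted between 3 and 11 times. The paralogs named beside the 10 genes were chosen after their values were seen.

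**Figure D3:**
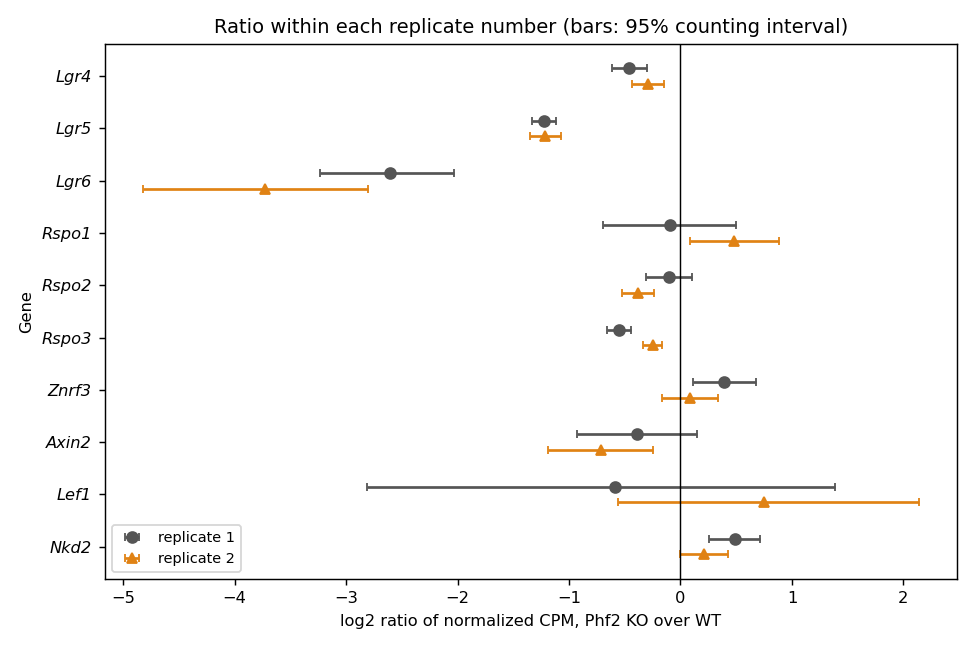
Log2 ratio of normalized CPM, *Phf2* KO over WT, within replicate 1 (grey circles) and replicate 2 (orange triangles) for each of the 10 genes, with bars for the 95% counting interval. Both ratios are below 0 for 6 genes and above 0 for 2, and those of *Rspo1* and *Lef1* have opposite signs. The genes were chosen on this contrast.

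Within replicate numbers, 6 genes were lower in both, 2 higher in both, and *Rspo1* and *Lef1* differed in sign. The share of all genes with the same sign in both was not computed, and these counts describe genes chosen on this contrast. *Lgr5* and *Lgr6* had the largest ratios. The intervals cover counting error only, so whether they include 0 is no test of the genotype. Of the 10 genes, 61 of 4665 stretches of 50 bases (the read length) of *Lgr5* and 9 of 6262 of *Znrf3* also occur in annotated protein-coding transcripts of other genes, and none of the others' do. Noncoding transcripts and pseudogenes were not searched. *Lgr5*, *Rspo1*, *Axin2* and *Nkd2* each overlap an annotated gene on the opposite strand. The alignment is described as reverse stranded.

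The genes whose pattern over the 4 libraries was nearest were found by the distance between log2 CPM centred on each gene's mean. Nearest to *Lgr6* was *Pgr*, the progesterone receptor, at a distance of 0.504 log2 units, with 5.52 and 5.94 CPM in WT against 1.16 and 0.291 in *Phf2* KO. The next were *Slitrk1* at 0.956 and *Slc14a1*, a urea transporter, at 0.977. Distances were not scaled to the size of a difference, and *Lgr6* was chosen for its values, so its larger distances describe the choice. *Slitrk1*, with 0.290 and 0.208 CPM in *Phf2* KO, and *Slc14a1*, with 0.193 and 0, passed the filter on low counts only through their WT libraries. Nearest to *Lgr5* were *B4galnt2*, a glycosyltransferase, at 0.210, *Lgi2* at 0.260 and *Ostn* at 0.316. *B4galnt2* had 31.6 and 14.9 CPM in WT against 15.0 and 7.28 in *Phf2* KO, so it was lower in *Phf2* KO and in replicate 2 like *Lgr5*. Nearest to *Lgr4* was *Slc22a18* at 0.0305, nearest to *Axin2* was *Sync* at 0.0602, and nearest to *Nkd2* was *Pde2a* at 0.0262. With 4 libraries, small differences have many near neighbours.

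The rest of the pathway was read from 5 lists with 113 genes, of which 88 passed the filter. Only *Dkk2* was called, and 8 of the 88 had an unadjusted p-value under 0.05 in edgeR's quasi-likelihood test, with 4.21% of all genes tested. Of the 88 genes, 12 were higher and 20 lower without overlap, with 15.5% and 18% over all genes tested. The median log2 fold change of the 88 was −0.02.

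Of 14 other genes of the receptor complex and the R-spondin axis, 0 were called by edgeR's quasi-likelihood test and 1 had an unadjusted p-value under 0.05. Their log2 fold changes ranged from −0.29 to 0.19, with a median of −0.0015. The lowest was *Lrp6*, the Wnt co-receptor, with 239.5 and 225.9 CPM in WT against 190.7 and 191.1 in *Phf2* KO (edgeR's quasi-likelihood test, unadjusted p = 0.0219, adjusted p = 0.999). The Frizzled receptor *Fzd4* had 47.1 and 52.8 against 38.0 and 46.9 CPM, and the co-receptor *Ptk7*, the most abundant gene of the list, 276.8 and 338.8 against 357.6 and 345.2.

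Of 21 other target genes of Wnt and β-catenin, 0 were called by the same test and 4 had an unadjusted p-value under 0.05. Their median log2 fold change was −0.09, and 2 were higher and 6 lower without overlap, with 15.5% and 18% over all genes tested. *T*, the Brachyury factor of early mesoderm, was counted 11 and 16 times in WT against 2 and 5 times in *Phf2* KO, and *Tnfrsf19* 16 and 15 times against 9 and 5. *T* passed the filter on low counts only through its WT libraries, so the filter favoured a fall, and *T* is among those 4. *Apcdd1*, a membrane-bound inhibitor of Wnt named here after its values were seen, had 17.7 and 22.6 CPM in WT against 11.6 and 12.4 in *Phf2* KO, a log2 fold change of −0.74 (SE 0.166, adjusted p = 0.999 in edgeR's quasi-likelihood test). On the other side, *Id2*, an inhibitor of basic helix-loop-helix factors, had 67.7 and 67.9 CPM in WT against 82.8 and 93.8 in *Phf2* KO. *Enc1* had a log2 fold change of 0.13 (SE 0.0989), and *Lbh*, the most abundant gene of the list, 0.23 (SE 0.173). Target genes outside the 10 thus lay on both sides of 0.

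Of 32 intracellular and nuclear components, 0 were called by the same test and 0 had an unadjusted p-value under 0.05, with a median log2 fold change of −0.02. *Ctnnb1*, which encodes β-catenin, had 797.1 and 878.7 CPM in WT against 772.4 and 845.3 in *Phf2* KO. The casein kinase genes differed in sign, with log2 fold changes of 0.29 (SE 0.129) for *Csnk1e*, −0.25 (SE 0.105) for *Csnk1a1* and −0.13 (SE 0.0977) for *Csnk1g1*. *Ctnnbip1*, an inhibitor of β-catenin, had 0.15 (SE 0.101).

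Of 12 ligands and secretion genes, 0 were called and 1, *Wnt2*, had an unadjusted p-value under 0.05 in the same test, and of 9 secreted antagonists and their receptors 1 was called. *Dkk2*, which blocks Lrp6, fell from 40.5 and 43.8 CPM in WT to 6.32 and 6.74 in *Phf2* KO, a log2 fold change of −2.69 (SE 0.115, adjusted p = 0.0843 in edgeR's quasi-likelihood test). This call was lost when any 1 of the 4 libraries was left out. Among the ligands, *Wnt4* and *Wnt10b* had log2 fold changes of 0.48 (SE 0.195) and 0.38 (SE 0.329), and *Wnt2* and *Wnt11* of −0.84 (SE 0.287) and −0.36 (SE 0.188). *Wls*, which carries Wnt proteins to the surface, had 0.07 (SE 0.0816). Among the antagonists, *Frzb* had −0.58 (SE 0.205), *Tpbg* 0.29 (SE 0.1502) and *Sfrp1*, the most abundant, 0.08 (SE 0.148).

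**Figure D4:**
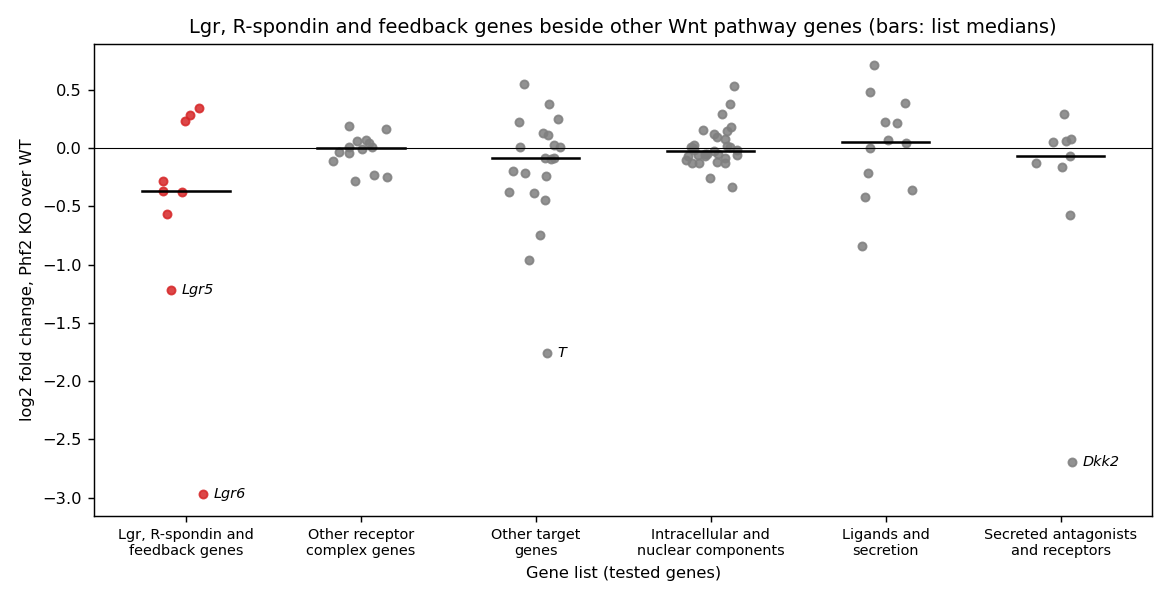
Log2 fold change, *Phf2* KO over WT, of each tested gene in the Lgr, R-spondin and feedback group (red, 9 genes) and in the 5 lists of other Wnt pathway genes (grey, 88 genes), with bars for the medians. The median was −0.37 in the red group, which was chosen for its values, and lay between −0.09 and 0.06 in the 5 lists, with *Lgr6*, *Dkk2* and *T* lowest. *T* passed the filter on low counts only through its WT libraries.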

How the data were processed

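Raw counts per gene for 24391 symbols were used as deposited. Following the labels and the methods of the study, polyadenylated RNA was sequenced as single reads of 50 nt, trimmed with Trim Galore, cleared of ribosomal RNA with bowtie2, aligned with STAR as reverse stranded to mm9 and counted with featureCounts by the authors. Tool versions are not given in the sources used here. The second deposited table holds the authors' own DESeq2 comparison and was not used. Groups follow the sample titles.

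The tests were run with edgeR 4.0.16 (R 4.3.3), in which filterByExpr kept 13668 genes, libraries were scaled by TMM, and genotype was tested with glmQLFit and glmQLFTest on all kept genes, with Benjamini-Hochberg adjustment and a threshold of 0.1. DESeq2 1.42.0, limma 3.58.1 (voom), other scalings, filters and thresholds, the replicate number as a term, and each library left out were alternatives. Scripts were tested on simulated data with less spread between replicates than these libraries and no effect of replicate number. That test checked the code and does not describe the power here. A total of 3 counts corresponded to 0.116 to 0.145 CPM. Counting intervals are exact at 95%, conditional on the sum of both counts, and cover counting error only.

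RPKM used the length of the transcript with the longest coding sequence in GENCODE vM1 on mm9, on which 20641 symbols were found directly and 1379 by synonym. Promoter windows came from RefSeq. From each pathway list the called genes, the 2 largest rises and falls without overlap and the most abundant gene are named, and for the 10 genes the 3 nearest patterns. The 10 genes and all lists were chosen with earlier results of these data known. Figures used Python 3.11.15 and Matplotlib 3.10.9.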

Additional observations from a re-analysis of the deposited data

How the results depend on the processing

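The main comparison called 0 genes higher and 1 lower (*Dkk2*). DESeq2 called 10 higher and 54 lower. Limma-voom and thresholds of 0.05 and 0.01 called 0 lower, and leaving out 1 library gave 0 to 0, while 154 to 316 genes were lower at an unadjusted p-value under 0.05 without 1 library and 352 in limma-voom. The pathway lists moved with *Dkk2*: 0 lower under limma-voom, under both stricter thresholds and without any 1 library (0 to 0). The cause was not tested for any of these.

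With the replicate number as a block, 789 genes were called higher and 711 lower, or 11% of the 13668 tested, and 9 and 14 of the listed pathway genes. Of the 9 genes described here that were tested, 5 were called, namely *Lgr4*, *Lgr5*, *Lgr6*, *Rspo3* and *Nkd2*. Deviations of same-numbered libraries correlated across genes (r = 0.774), but no label states a pairing, only 2 pairs exist and the block leaves 1 residual degree of freedom.

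The log2 fold changes of the 9 genes that passed the filter kept their sign in all 63 values under other scalings, filters and tools and under the block. Without 1 library they ranged from −4.03 (without *Phf2* KO replicate 1) to −2.34 (without *Phf2* KO replicate 2) for *Lgr6* and from −1.76 (without *Phf2* KO replicate 1) to −0.67 (without WT replicate 1) for *Lgr5*. *Rspo2* went to 0.35 without WT replicate 2 and 0.06 without *Phf2* KO replicate 1, *Rspo1* to −0.46 without *Phf2* KO replicate 2, and *Rspo3* ranged from −0.72 (without *Phf2* KO replicate 2) to −0.10 (without *Phf2* KO replicate 1). *Lef1* gave no fold change. By summed exon length, chosen after seeing the annotation, *Lgr5* had 8.05 RPKM in WT and 3.45 in *Phf2* KO and a mean share of the Lgr sum of 49.5% and 40.5%, against 64.9% and 55.7% by main transcript.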
